A study of Mus musculus with 112 samples.

Results

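The regions described here are peaks of the Ser2-phosphorylated form (Ser2P) of RNA polymerase II (Pol II) that were called before SNRNP70 depletion and that shared at least 1 bp with a Ser2P peak called after it. There were 3372 of them among 5915 Ser2P peaks at 0 h, and they met 3030 of 7090 Ser2P peaks at 4 h. They were chosen from the positions of the peaks at both times, so how many there are, and how wide and how highly scored they are, is given as a description with no test. The other 2543 Ser2P peaks of the 0 h list, called 0 h-only below, and the 11218 Ser5P peaks kept in the same way serve as comparisons.

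The cells were mouse embryonic stem cells of strain 129/Ola, a line made from 46C cells in which SNRNP70, a protein of U1 snRNP, carries an auxin-inducible degron (AID). The degron is a tag that brings about destruction of the protein when the auxin indole-3-acetic acid (IAA) is added. The titles of the libraries name the degron line and their source names give 46C cells. Both groups carried the tag: the 0 h group was left without IAA, and the 4 h group received 500 µM IAA for 4 h. Chromatin immunoprecipitation with antibodies against Ser2P or Ser5P gave 1 library for each mark and time, and how far SNRNP70 was depleted in these cultures is not measured by the peak lists. The design text of the series gives the question as how Ser5P and Ser2P Pol II occupancy changed on loss of SNRNP70.

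The C-terminal tail of Pol II is phosphorylated at Ser5 around initiation and early elongation, so Ser5P is found mostly near gene starts. Phosphorylation at Ser2 follows as Pol II elongates, and Ser2P commonly builds up through gene bodies and towards and beyond polyadenylation sites. U1 snRNP recognises 5′ splice sites and is also known to keep Pol II transcripts from being cut and polyadenylated too early.

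Every list came from 1 library, so no difference below has a replicate check and none was tested. The 4 h lists were longer and covered more of the genome for both marks. Ser2P went from 5915 peaks over 8.80 Mb to 7090 peaks over 12.4 Mb, and Ser5P from 14809 peaks over 24.9 Mb to 16216 peaks over 29.7 Mb. The median width of all peaks was 1023 bp at 0 h and 1179 bp at 4 h for Ser2P, and 1223 bp and 1336 bp for Ser5P. The number of reads behind each list is not given in the sources used here, so more Pol II, deeper sequencing and better enrichment cannot be told apart in any widening described below. Positions are on build mm9, counted from 1, and genes are not named because no mm9 annotation was used here.

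The membership rule kept 57.0% of the 0 h Ser2P peaks (exact binomial 95% interval 55.7 to 58.3, counting error only, with peaks taken as independent), and the same rule kept 75.8% of the 0 h Ser5P peaks. The kept Ser2P peaks covered 6.30 Mb, which was 71.5% of all bases under 0 h Ser2P peaks. Their 4 h partners covered 7.56 Mb, and 5.14 Mb were shared. The shared bases were 81.6% of the kept peaks at 0 h and 67.9% of their partners at 4 h, so more of the 4 h sequence than of the 0 h sequence lay outside the common part. A kept peak had a median of 92.3% of its length under a 4 h peak. In 1262 kept peaks the whole length was covered (37.4%), and in 456 less than 50.0% of it was (13.5%).

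At the edge of the rule, the kept peak with the least overlap lay on chromosome 9, 78059216 to 78059940, and shared 1 bp with its partner. The next had 5 bp each, on chromosome 4, 147376325 to 147377455, and on chromosome 6, 34891947 to 34892996. Just outside the rule, the 0 h-only peak on chromosome 15, 75726326 to 75727031, touched a 4 h peak with 0 bp between them, and those on chromosome 5, 122621004 to 122622161, and chromosome 17, 47470315 to 47470972, stood 2 bp and 3 bp away. Few members were this close to the limit: 55 of the 3372 were overlapped by under 100 bp. Of the 0 h-only peaks, 455 of 2542 on sequences with a 4 h peak lay within 1000 bp of one.

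Kept peaks tended to be wider and more highly scored than 0 h-only peaks, with much overlap. Wide peaks meet a limit of 1 bp more easily, and how much of the difference this makes up was not tested. The 0 h width of kept peaks ran from 307 to 20123 bp with a median of 1352 bp. For 0 h-only peaks the median was 813 bp and the highest value 6773 bp. The lower quartile of kept peaks, 869 bp, was below the median of all 0 h Ser2P peaks, 1023 bp. In the narrowest quintile of 0 h peaks, 289 to 696 bp, 401 of 1191 were kept (33.7%). In the widest, 1997 to 20123 bp, 1065 of 1183 were (90.0%). The score deposited with each peak, whose meaning is not given in the sources used here, had a median of 122 in kept and 64.6 in 0 h-only peaks of the 0 h list. In the lowest score quintile 400 of 1186 peaks were kept and in the highest 1093 of 1183. Width and score ordered the kept peaks in nearly the same way (Spearman's rho 0.892 over 3372 peaks of 1 library, a description).

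**Figure D1:**
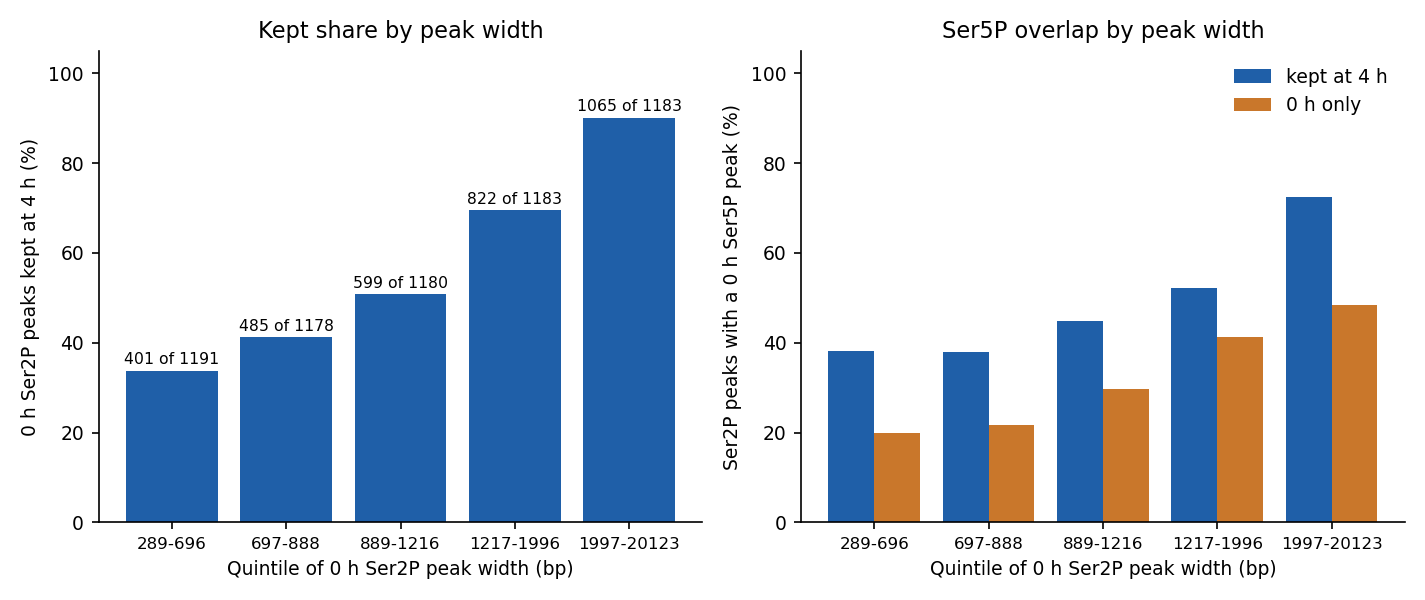
Left, percent of 0 h Ser2P peaks kept at 4 h in each quintile of 0 h width (bp), with counts above the bars. Right, percent with a 0 h Ser5P peak among kept peaks (blue) and 0 h-only peaks (orange) in the same quintiles. The kept share runs from 33.7% in the narrowest to 90.0% in the widest quintile, and the blue bar is the higher in all 5.

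Of the kept peaks with the highest 0 h scores, 3 stood above 3100, and the next 2 named here were taken from the peaks tied at exactly 3100 by the lower chromosome and start. Each of these 5 met 1 Ser2P peak at 4 h and lay under 1 Ser5P peak at both times. On chromosome 1, 88423998 to 88430980, the 0 h peak was 6983 bp wide with a score of 3193.79, and its 4 h partner was 7125 bp wide. On chromosome 17, 15156455 to 15161233, the widths were 4779 and 4848 bp. On chromosome 9, 40614296 to 40616658, they were 2363 and 2206 bp. These first 3 kept nearly the same width. On chromosome 1, 39426655 to 39434759, the width was 8105 bp at 0 h and 6388 bp at 4 h, and on the same chromosome, 88238533 to 88248308, it was 9776 bp and then 15648 bp. In all, 21 peaks of the 0 h list and 34 of the 4 h list carried exactly 3100.

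The widest kept peak lay on chromosome 13, 98254624 to 98274746, with 20123 bp at 0 h and 21522 bp at 4 h under 1 Ser5P peak. A peak of 16959 bp on chromosome 1, 155292463 to 155309421, became part of a 4 h peak of 40424 bp, the widest of the 4 h Ser2P list. On chromosome X, 166421003 to 166436199, the widths were 15197 and 16934 bp, and on chromosome 8, 44371244 to 44384213, 12970 and 15344 bp. On chromosome 15, 102327034 to 102338500, a single peak of 11467 bp at 0 h was replaced by 3 peaks that together measured 7139 bp. Of the 5 widest, then, 4 met a wider peak at 4 h and 1 was broken up.

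Most kept peaks paired with a single 4 h peak that met no other 0 h peak: 2157 of 2770 groups of overlapping peaks were such one-to-one pairs. Their median width was 1406 bp at 0 h and 1815 bp at 4 h. The median of the ratio of 4 h to 0 h width was 1.19 (quartiles 0.908 and 1.65, range 0.158 to 11.8), and the 4 h peak was the wider in 1454 of 2157 (67.4%). At a fold of 1.5, 655 pairs were wider at 4 h (30.4%, interval 28.4 to 32.4) and 213 narrower (9.87%, interval 8.65 to 11.2). Over all one-to-one pairs of both marks the same limits called 20.3% wider and 5.72% narrower.

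Ser5P pairs leaned to the wider side about as often, with the 4 h peak the wider in 6107 of 9128 (66.9%), but by smaller ratios. Their median ratio was 1.12 over 9128 pairs, with 17.9% wider and 4.73% narrower by 1.5-fold. In Ser2P both tails were heavier, as the plot of width ratios shows. The share of wider pairs was also the higher in Ser2P among pairs of like size: cut at the quintiles of the geometric mean of both Ser2P widths, 22.9%, 36.0%, 41.3%, 32.5% and 19.2% of Ser2P pairs were wider, from the smallest to the largest, against 12.8%, 17.9%, 19.8%, 23.2% and 13.0% of Ser5P pairs. In the same quintiles 4.40%, 16.7%, 13.0%, 9.98% and 5.32% of Ser2P pairs were narrower, against 6.91%, 4.55%, 3.77%, 4.26% and 4.67% of Ser5P pairs. The narrower share was thus also the higher in Ser2P in all but the smallest quintile. The contrast in wider pairs shrank when each peak of a pair had to cover at least 50.0% of the other, to 17.9% of 1786 Ser2P pairs and 14.2% of 9037 Ser5P pairs. That rule leaves out any pair more than 2-fold wider by construction. Without it, 16.1% of Ser2P and 5.27% of Ser5P pairs were wider by 2-fold or more, so part of the shrinkage was fixed by the rule. Whether Ser2P and Ser5P lists differed in depth was not tested.

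**Figure D2:**
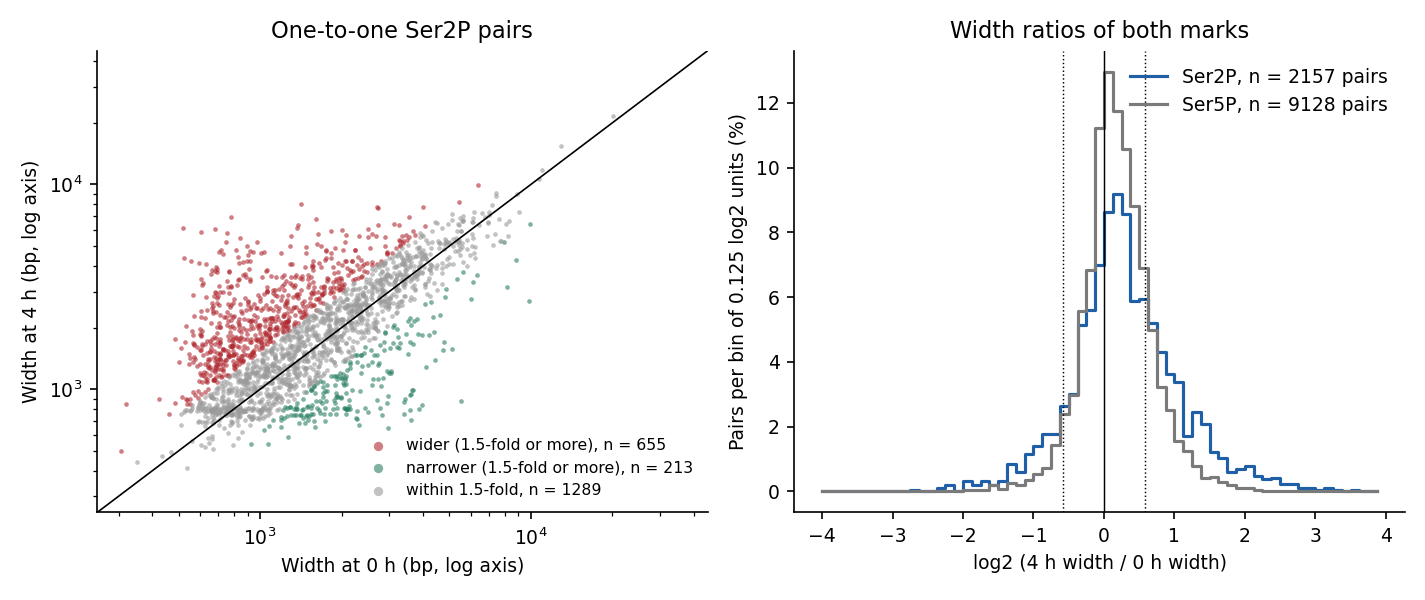
Left, 4 h width against 0 h width (bp, log axes) of 2157 one-to-one Ser2P pairs, with the line of equal width; 655 are wider and 213 narrower by 1.5-fold or more. Right, percent of Ser2P pairs (blue) and Ser5P pairs (grey) per bin of the log2 width ratio, with dotted lines at 1.5-fold; the medians are 1.19 and 1.12 as plain ratios and the Ser2P curve is the broader.

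The width ratio varied with the width by which pairs were sorted, and the direction depended on which width was used. Each width is itself a term of the ratio, so neither order shows a dependence on starting width. Sorted by 0 h width, the median ratio fell from 1.67 in the narrowest quintile (307 to 830 bp) to 0.999 in the widest (2684 to 20123 bp). By 1.5-fold, 246 pairs were wider and 0 narrower in the narrowest quintile, and 31 wider and 76 narrower in the widest. Sorted by 4 h width the median ratio went the other way, from 0.894 in the narrowest to 1.32 in the widest. With the geometric mean of both widths it was above 1 in all 5 quintiles, from 1.12 to 1.31, so widening was not limited to pairs of small mean width.

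The most widened pairs started with low scores, between 50.57 and 61.19. They were picked by width ratio, and width and score ran together in both lists (Spearman's rho 0.892 for kept peaks at 0 h, 0.902 for partners at 4 h). Low 0 h and high 4 h scores therefore go with the choice. On chromosome 10 a peak of 520 bp, 80009288 to 80009807, in the lowest 8.30% of 0 h scores, was met at 4 h by a peak of 6118 bp that reached 3506 bp further left and 2092 bp further right. On chromosome 7, 86821366 to 86821970, 605 bp became 5882 bp, and at 125987574 to 125988353 on that chromosome 780 bp became 6945 bp, nearly all of it to the right. On chromosome 5, 65197006 to 65197688, 683 bp became 6042 bp, and on chromosome 9, 106590722 to 106591246, 525 bp became 4351 bp. The ratios ran from 8.29 to 11.8, and the 4 h peaks had scores of 544.58 to 807.13 in their own list, above 91.4% of it.

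The most narrowed pairs started with scores above 82.5% of the 0 h list, which likewise goes with picking them by width ratio. On chromosome 6 a peak of 5535 bp, 39336421 to 39341955, with a 0 h score of 1099.79, was left with 875 bp at 4 h, and 1 Ser5P peak overlapped it at 0 h and none at 4 h. On chromosome 17, 56243028 to 56246636, 3609 bp became 708 bp, and on chromosome 10, 62347228 to 62351100, 3873 bp became 801 bp. On chromosome 9, 114675979 to 114679935, 3957 bp became 839 bp, and on chromosome 2, 80653067 to 80656034, 2968 bp became 643 bp. These are 4.62 to 6.33 times narrower at 4 h, with 4 h scores of 50.02 to 59.97, all within the lowest 27.1% of that list.

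The edges of a pair often moved in opposite senses. Both edges lay further out at 4 h in 713 of 2157 pairs (33.1%), both further in in 265, and in 1178 (54.6%) 1 edge was further out and the other further in. Among Ser5P pairs, both edges lay further out in 3535 of 9128 (38.7%). In Ser2P, left and right edges moved alike, with medians of 118 and 97 bp further out. Of the 655 widened pairs, 415 had over 80% of their gain at a single edge, and the median gain was 1202 bp. Where a Ser5P peak lay off centre by 250 bp or more, the edges could be told apart as facing it or facing away. The centre was that of the joint extent of the 0 h and 4 h Ser2P peaks. It moves with the edges, so these labels depend in part on the shifts measured. With Ser5P of the 0 h list, 814 such pairs had medians of 77 bp further out on the facing and 142.5 bp on the far edge, and the facing edge had moved out more in 46.9% of them. With Ser5P of the 4 h list it was 56.0% of 739 pairs, the opposite direction, so no side was favoured regardless of the Ser5P list used.

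Merging was the second most frequent fate. In 373 groups (13.5% of 2770, interval 12.2 to 14.8), several 0 h peaks lay under a single 4 h peak, and these held 833 kept peaks. The reverse, a single 0 h peak over several 4 h peaks, was found in 133 groups (4.80%), and 107 groups had several peaks at both times. Over both marks 7.33% of groups were merged and 3.14% split. In Ser5P, 579 of 10209 groups were merged (5.67%) and 275 split (2.69%). Merged groups outnumbered split groups 2.80 times in Ser2P and 2.11 times in Ser5P. Most joins were small, with 308 of 373 taking in a pair of 0 h peaks.

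Joined peaks had stood close together. The gap between them had a median of 199.5 bp, with quartiles of 69.5 and 535 bp and a highest value of 3432 bp. The share of neighbours joined was counted in both directions of time. Of neighbouring 0 h peaks less than 500 bp apart, both kept, 437 of 510 (85.7%) had a common 4 h peak. Of neighbouring 4 h peaks as close, both over 0 h peaks, 216 of 338 (63.9%) had a common 0 h peak. At gaps of 1000 to 2000 bp the values were 53 of 137 (38.7%) and 12 of 97 (12.4%), and at 2000 to 5000 bp 18 of 140 (12.9%) and 1 of 90. In Ser5P the shares below 500 bp were near those of Ser2P, with 719 of 897 (80.2%) and 483 of 734 (65.8%). At 1000 to 2000 bp they were 23.7% and 13.4%. Neighbours below 500 bp numbered 510 for 3372 kept Ser2P peaks and 897 for 11218 kept Ser5P peaks. How far this bears on the share of merged groups in each mark was not tested. Long gaps were thus closed at 4 h more often than opened, in both marks. The 4 h peak was wider than the whole 0 h span from the first to the last joined peak in 201 of 373 merged groups, so the rest were joined by a peak no wider than that span. The merged groups alone held 460 closed gaps. The neighbours counted above also include peaks of groups with several peaks at both times. Of the 460 gaps in merged groups, 237 held part of a Ser5P peak at 0 h and 213 at 4 h. The same share was not measured for gaps that were not closed, so whether closed gaps held Ser5P more often was not tested.

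**Figure D3:**
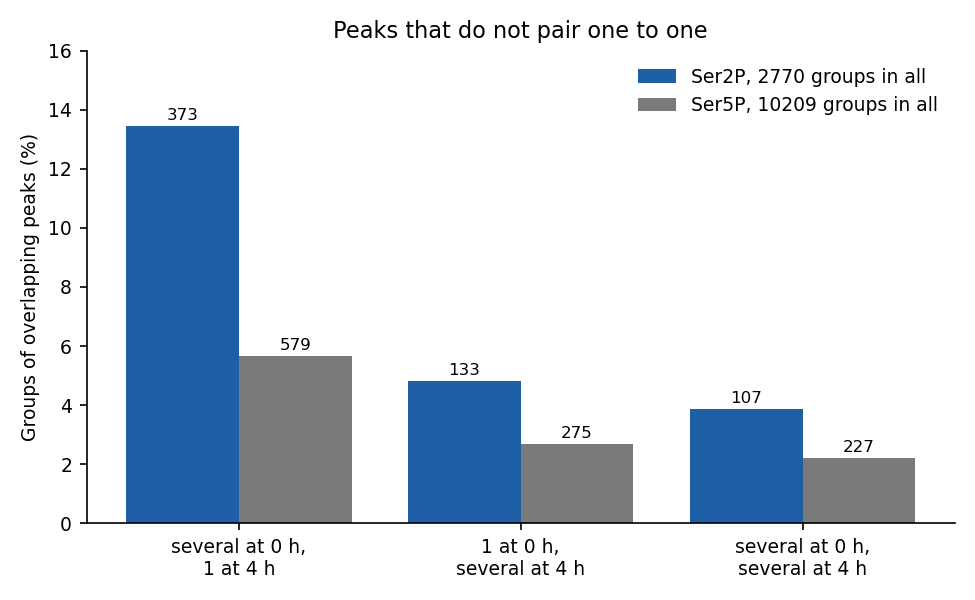
Percent of groups of overlapping 0 h and 4 h peaks that were not one-to-one pairs, for Ser2P (blue, 2770 groups) and Ser5P (grey, 10209 groups), with the number of groups above each bar. Merged groups are 13.5% of Ser2P and 5.67% of Ser5P groups, and split groups 4.80% and 2.69%.

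The largest join, on chromosome 1, 155289411 to 155330975, took in 8 kept peaks with a summed width of 39492 bp, over a span of 41565 bp, under a single 4 h peak of 40424 bp. Here the Ser2P signal was already nearly gapless at 0 h, and Ser5P went from 2 overlapping peaks at 0 h to 6 at 4 h. The sequence under Ser5P peaks was not summed, so counts of Ser5P peaks here and below do not give a gain or loss. The second, also on chromosome 1, 136512884 to 136522628, was of another kind: 5 peaks with a summed width of 5838 bp were met by a 4 h peak of 16262 bp, with no Ser5P peak over them at either time. On chromosome 11, 77507623 to 77518915, 5 peaks of 5456 bp in sum came under a peak of 11080 bp, while the Ser5P peaks over them went from 5 to 3. On chromosome 19, 4755486 to 4766983, 4 peaks of 10457 bp in sum came under 12640 bp, and on chromosome 4, 147980364 to 147991696, 4 peaks of 10640 bp in sum under 10318 bp.

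The most divided kept peak lay on chromosome 14, 55679002 to 55684832. Its 5831 bp were met by 4 peaks at 4 h that together measured 6084 bp, with no Ser5P peak. On chromosome X, 159218331 to 159224451, 6121 bp were met by 3 peaks of 4055 bp in sum, again with no Ser5P peak. On chromosome 11, 3143512 to 3147405, 3894 bp were met by 3 peaks of 2891 bp in sum, and 2 Ser5P peaks overlapped it at 0 h and none at 4 h. On chromosome 4, 147043280 to 147050648, 7369 bp became 2 peaks of 6547 bp in sum. With the chromosome 15 peak named above, the summed width was lower at 4 h in 4 of these 5, unlike split groups as a whole. All 133 split groups together measured 402 kb at 0 h and 450 kb at 4 h, a ratio of 1.12, against 1.21 for one-to-one pairs and 1.21 for merged groups.

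**Figure D4:**
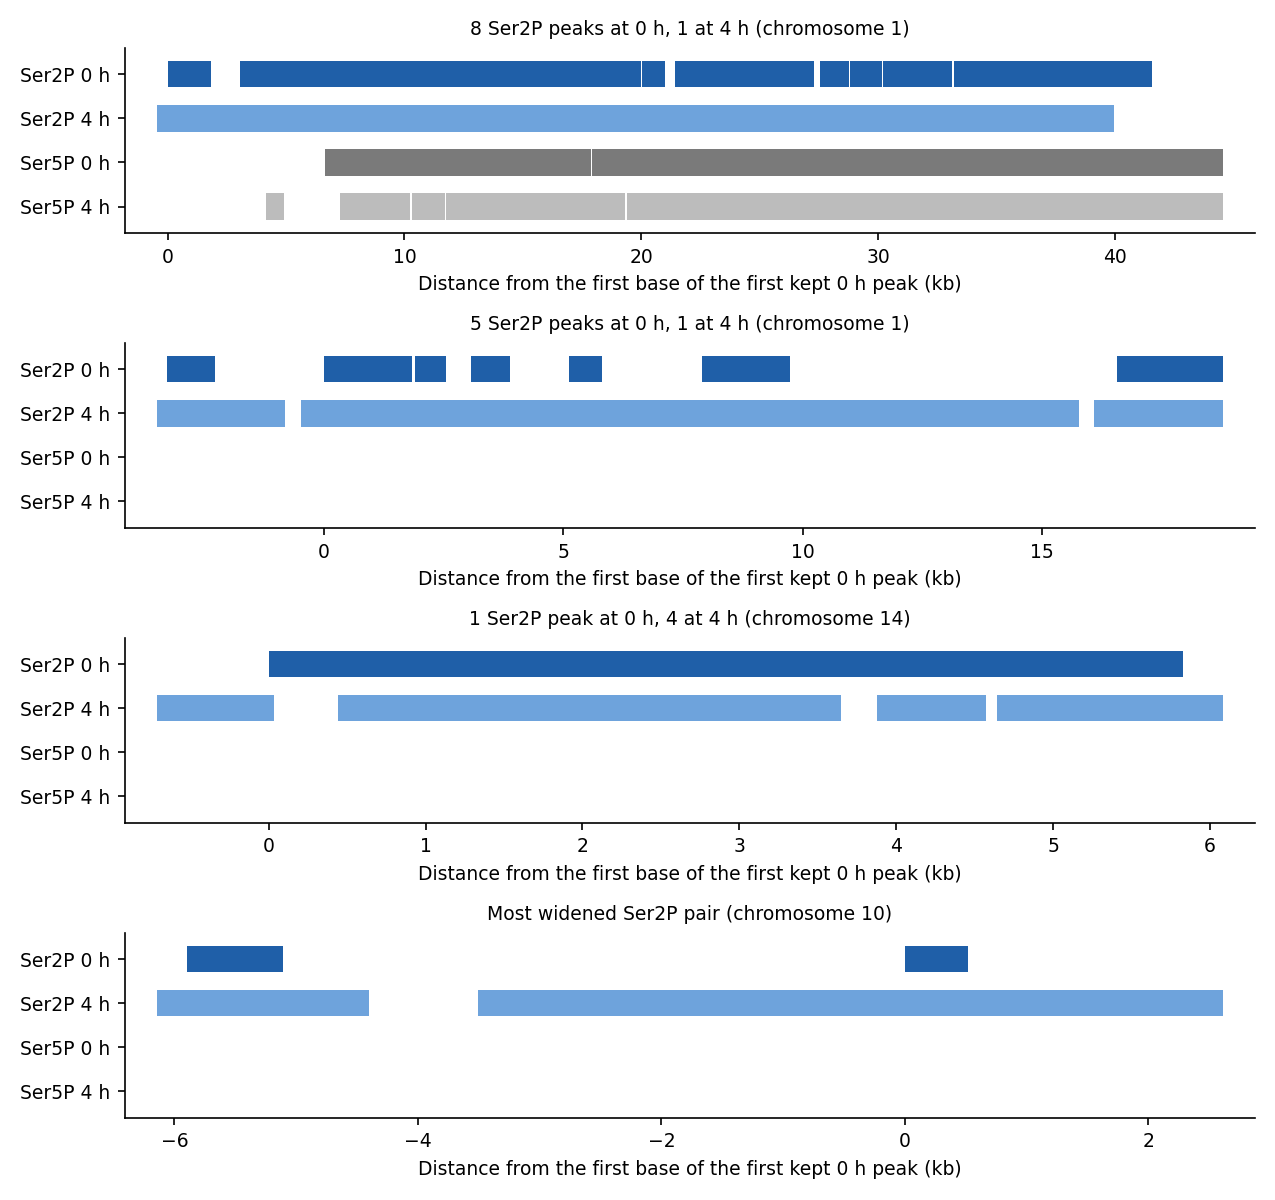
Peaks of the 4 lists at 4 named regions, as distance in kb from the first base of the first kept 0 h Ser2P peak; bars are peaks, cut off 3 kb outside the region. From top to bottom: 8 peaks at 0 h under 1 peak of 40424 bp at 4 h, 5 peaks under 1 peak of 16262 bp, 1 peak of 5831 bp over 4 peaks, and a pair that went from 520 to 6118 bp. Ser5P peaks are present in the top region and absent from the other maps.

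Within 5 kb of another kept peak lay 1614 of the 3372 (47.9%), and the other 1758 stood alone. The same share was not measured for all 0 h Ser2P peaks or for Ser5P. Whether kept peaks lay closer together than others is therefore not shown. Neighbours under a common 4 h peak were also kept together by the rule. The 1614 formed 638 runs with a median span of 4.80 kb, and 30 runs held 5 or more. The run with the most kept peaks, on chromosome 3, 41366024 to 41406153, held 13 kept and 4 0 h-only peaks over 40.1 kb. Its 11 partners at 4 h measured 16248 bp in sum against 21331 bp at 0 h, and the number of Ser5P peaks over the kept peaks went from 10 to 2. Ser5P widths there and 4 h peaks away from the kept peaks were not measured. The second, on chromosome 1, 72225856 to 72252154, went from 12 kept peaks of 17489 bp in sum to 7 partners of 20718 bp. The third, on chromosome 1, 136498397 to 136522628, went from 10 kept peaks of 11255 bp in sum to 4 partners of 28997 bp with no Ser5P peak over the kept peaks at either time, and holds the second largest join. Kept peaks were spread over all 20 placed chromosomes with Ser2P peaks, from 43.1% kept on chromosome 14 (50 of 116) to 63.6% on chromosome 7 (279 of 439). The median width ratio of pairs was above 1 on each, from 1.05 to 1.31.

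Ser5P was not used to choose the peaks. A 0 h Ser5P peak overlapped 1805 of 3372 kept peaks (53.5%, interval 51.8 to 55.2), against 42.1% of all 0 h Ser2P peaks and 687 of 2543 0 h-only peaks (27.0%, interval 25.3 to 28.8). With Ser5P of the 4 h list the values were 47.2% of kept peaks, 34.4% of all and 17.3% of 0 h-only peaks. Wide peaks meet other peaks more easily, and the difference was present in every width quintile: 38.2% of kept and 20.0% of 0 h-only peaks in the narrowest, 72.4% and 48.3% in the widest. Read the other way, 49.2% of the narrowest 0 h peaks with Ser5P were kept and 28.2% of those without, and 93.1% and 82.8% of the widest. Widths can still differ within a quintile: the widest runs from 1997 to 20123 bp, and 0 h-only peaks end at 6773 bp. Width and score were not held equal together, and what the difference goes with was not tested. Of the Ser5P peaks over kept Ser2P peaks, 1284 of 1698 (75.6%) were themselves kept at 4 h, close to the 75.8% of all 0 h Ser5P peaks.

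Where both marks met, 767 of 1805 kept peaks lay wholly inside the Ser5P peak (42.5%), 224 reached beyond it on both sides (12.4%) and 814 were offset or reached beyond it on 1 side. Among 687 0 h-only peaks with Ser5P, 300 lay inside it (43.7%), 46 reached beyond it on both sides (6.70%) and 341 were offset (49.6%). Lying inside was thus about as frequent in both, with no split by width. Of the 4 h partners, 1478 of 3030 had a 4 h Ser5P peak (48.8%), against 36.2% of all 4 h Ser2P peaks and 26.7% of those with no 0 h peak under them. Partners had a median width of 1893.5 bp, and 4 h peaks with no 0 h peak under them 942 bp. These shares were not split by width. Of the 1478 partners with Ser5P, 459 lay inside the Ser5P peak (31.1%) and 304 reached beyond it on both sides (20.6%). The 1698 0 h Ser5P peaks over kept Ser2P peaks had a median width of 1974 bp, against 1223 bp for all 0 h Ser5P peaks. Choosing them by overlap favours wide ones. The 1567 kept peaks with no Ser5P peak at 0 h were mostly far from one: 487 had one within 5000 bp (31.1%), and the median distance was 13183 bp. For 0 h-only peaks without Ser5P it was 14356 bp, with 28.7% within 5000 bp.

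Ser5P at both times lay over 1415 kept peaks (42.0%), at 0 h alone over 390 (11.6%), at 4 h alone over 177 (5.25%) and at neither over 1390 (41.2%). The share of 0 h Ser2P peaks that were kept was 79.6% with Ser5P at both times, 69.1% with Ser5P at 4 h alone, 54.5% with Ser5P at 0 h alone and 43.9% with neither. In the same order, the kept peaks had median 0 h widths of 1785, 1035, 1506 and 1095.5 bp. These kept shares were not split by width, with which the kept share also rose. The pairs in which Ser5P was called at a single time lay at the ends of the range before splitting by width. In the 119 pairs with Ser5P at 4 h alone, the median width was 1115 bp at 0 h and 1987 bp at 4 h, and 60 were wider by 1.5-fold and 5 narrower (50.4% and 4.20%). In the 252 pairs with Ser5P at 0 h alone, it was 1507 and 1543 bp, with 56 wider and 49 narrower (22.2% and 19.4%).

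In 895 pairs with Ser5P at both times the median width was 1873 and 2320 bp, with 26.8% wider and 7.04% narrower. In 891 pairs with Ser5P at neither it was 1155 and 1491 bp, with 33.6% wider and 10.8% narrower. Split by 0 h width, the pattern held in part. Among pairs over 1406 bp at 0 h, the median ratio was 1.22 with Ser5P at 4 h alone (41 pairs), 1.09 with both (568 pairs), 0.981 with neither (335 pairs) and 0.868 with Ser5P at 0 h alone (134 pairs). Among pairs of 1406 bp or less it was 1.76 with Ser5P at 4 h alone (78 pairs), and 1.39, 1.38 and 1.39 with both, neither and 0 h alone (327, 556 and 118 pairs). The pairs with Ser5P at 0 h alone thus had the lowest median ratio among the wider peaks, and nearly that of pairs with both or neither among the narrower ones. The 4 h libraries of both marks came from cells of the same treatment, whether from the same culture is not given, and with 1 library each none of these differences was tested.

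**Figure D5:**
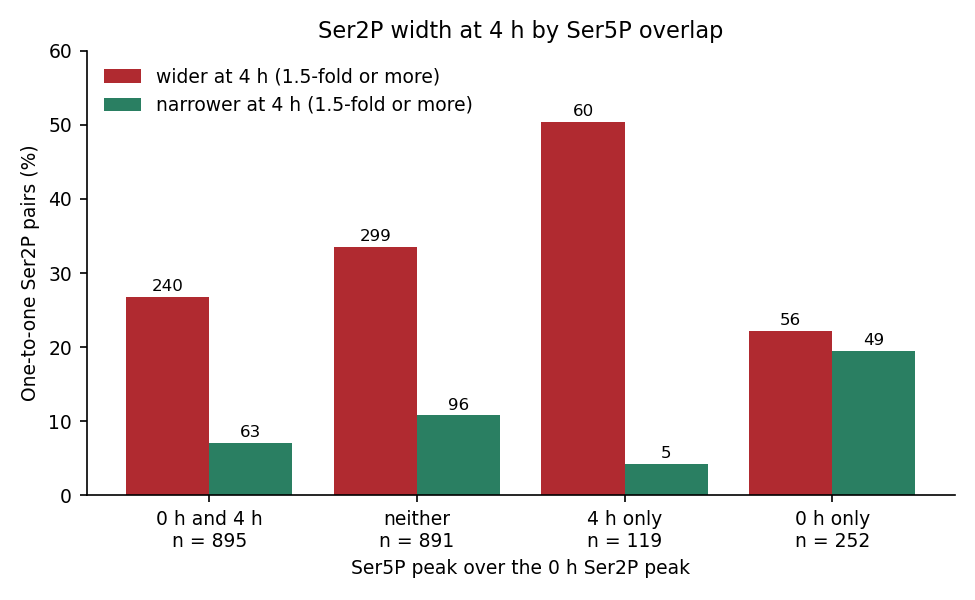
Percent of one-to-one Ser2P pairs that were wider (red) or narrower (green) at 4 h by 1.5-fold or more, by the time at which a Ser5P peak lay over the 0 h Ser2P peak, with the number of pairs above each bar. The share of wider pairs is highest with Ser5P at 4 h alone (50.4%) and that of narrower pairs with Ser5P at 0 h alone (19.4%).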

How the data were processed

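The 4 peak lists used were deposited by the authors, 1 library each. They have no header line and their peak names begin with MACS. Per the submitters' processing notes the build was mm9 and CASAVA, Bowtie2, TopHat2 2.0.11 and bedtools were used. The sources used here give no caller version, input control, threshold or read depth. The score in each list was deposited by the authors with each peak; it starts at 50.0 and was used only within its list.

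Peaks were taken as deposited and compared in Python 3.11.15 with scripts tested on simulated lists. An overlap of 1 bp linked peaks, and linked peaks formed groups. Wider or narrower means a fold of 1.5. Ser5P overlap was taken over the 0 h Ser2P peak unless stated. Intervals are exact binomial at 95%. No hypothesis test was made, because each group had 1 library. Named regions were the 5 highest scored, widest, most widened, most narrowed, most joined and most divided kept peaks, the 3 longest runs and the 3 peaks on either side of the overlap limit, chromosome 18 left out. The members, lists and measures were chosen with earlier results of these data known. The 4 tables of lncRNA values, TT-seq and ChIRP samples were not used here. Alternatives were other overlap limits, a score limit, joining peaks within 1 kb, autosomes only, a fold of 2 and the other Ser5P list.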

Additional observations from a re-analysis of the deposited data

How the results depend on the processing

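No paired analysis was possible because each list came from 1 library and no result came from a test. The share of 0 h Ser2P peaks kept (57.0%) was 48.2% when a 4 h peak had to cover at least 50.0% of the 0 h peak, 30.2% when that had to hold for both peaks, and 65.0% among peaks at or above the median score of their list. With the 4 h lists cut to as many peaks as the 0 h lists by score, chosen after seeing that they were longer, it was 53.8%. The share of pairs wider by 1.5-fold (30.4%) was 32.7%, 17.9% and, with equal list lengths, 32.4% under the first, second and last of these, and 16.1% at a fold of 2. Ser5P pairs gave 18.3%, 14.2%, 18.4% and 5.27% in the same order, so the gap was smallest under the rule for both peaks. That rule leaves out any pair more than 2-fold wider by construction. Merged groups (13.5%) were 8.95% with the score limit and 4.78% after joining peaks within 1 kb, and the rule for both peaks leaves 0 by construction. Kept peaks with Ser5P at 0 h (53.5%) were 59.0% under the rule for both peaks and 55.6% after joining. The share of pairs whose edge facing Ser5P moved out more (46.9%) turned to 52.8% under the rule for both peaks, 51.4% with the score limit and 56.0% with 4 h Ser5P. With Ser5P at least 500 bp off centre, also chosen after seeing the data, it was 47.0%. With autosomes alone every one of these results kept its direction. Apart from what the rule for both peaks fixes by construction, the cause of these shifts was not tested. Read depth, which would limit how many weak peaks each list could hold, is not given.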
